A study of Mus musculus with 2 samples.

Results

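The CC chemokine genes clustered on mouse chromosome 11 were examined in lung of wild-type and Rosa26-Foxm1 mice given a chemical carcinogenesis protocol. The members were the array probes annotated to 1 of 10 named genes of the cluster, Ccl1 to Ccl9 and Ccl11, and 9 of these genes had a probe, of 13840 named genes on the array. Ccl3 was the gene without one. Each of the 9 was read by a single probe. The list was put together with the values of these arrays known, so what follows describes these genes and tests nothing.

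CC chemokines are small secreted proteins with adjacent cysteines near their amino end, which draw leukocytes along a gradient through G protein-coupled receptors. In lung they are made by macrophages, epithelium, fibroblasts and endothelium during injury and inflammation. The cluster arose by gene duplication and lies in 2 groups. By order in the RefSeq gene table, the first group runs Ccl2, Ccl7, Ccl11, Ccl12, Ccl8, Ccl1, and the second Ccl5, Ccl9, Ccl6, Ccl3, Ccl4. Ccl2, Ccl7 and Ccl12 act on Ccr2, which brings monocytes out of the circulation. Ccl11, or eotaxin, acts on the eosinophil receptor Ccr3, mouse Ccl8 and Ccl1 on Ccr8, and Ccl6 and Ccl9 on Ccr1.

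Gene expression was measured on 1 array per group, each with a pool of RNA from the left lobes of 3 mice, 12 weeks after the carcinogen. Wild-type mice were male and of the strain FVB/N. Rosa26-Foxm1 mice are transgenic for the forkhead transcription factor Foxm1 and are named for the Rosa26 promoter, which is active in most tissues, and their labels used here give no sex or strain. Mice of both groups had received 3-methylcholanthrene intraperitoneally in a single dose (15 µg per g body weight) and then 6 weekly injections of the lung tumour promoter butylated hydroxytoluene (150 µg/g at first, 200 µg/g later). The labels used here give no age, and a group without the carcinogen was not analysed here. All 12 markers of lung structural cells that were looked up, among them Sftpc, Scgb1a1, Ager and Pecam1, were brighter than the median probe on both arrays. The Foxm1 probe read 1.13 in the wild-type pool and 1.23 in the Rosa26-Foxm1 pool, which differ by 0.11 on the log2 scale. The sources used here do not say whether it detects the transgene, so it does not check the genotype labels.

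Values are normalised intensities in units close to the array median. The floor was an intensity of 1.00, the median probe, below which values were set to the floor. A gene was measured if at least 1 array was above it. Differences are Rosa26-Foxm1 minus wild type on the log2 scale. A single array stood for each genotype, so the spread between replicates is unknown, no test of genotype was possible, and differences between mice could not be seen. The only error that can be given is the probe SD, the error of a single probe's log2 difference, taken from genes with several probes. It was 0.32 over 317 genes, 0.23 for brighter and 0.38 for dimmer pairs, split at an intensity of 10.2. In 5% of these pairs, the probes of the same gene were apart by more than 0.95.

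Promoter sequence is shown for the 4 measured members that the RefSeq table matched, as 3 of them were more than 2-fold higher and 1 lower in Rosa26-Foxm1 lung, and for Ccl12, which lies in the cluster beside Ccl8 but was not among the members. Each window holds the 250 bases before the annotated start in GRCm38.p6, written 5′ to 3′ along the gene. Ccl8 lies at chr11:82114935-82115184, plus strand, Ccl12 at chr11:82101595-82101844, plus strand, Ccl1 at chr11:82179813-82180062, minus strand, Ccl9 at chr11:83578637-83578886, minus strand and Ccl6 at chr11:83593088-83593337, minus strand. Capitals mark matches to any of 8 motifs searched on both strands: the TATA box (TATAAA), AP-1 (TGANTCA), STAT (TTCNNNGAA), STAT6 (the same letters with 1 more N), forkhead (TAAACA), PU.1 (GAGGAA), C/EBP (TTGCNNAA) and the NF-kB consensus.
Ccl8: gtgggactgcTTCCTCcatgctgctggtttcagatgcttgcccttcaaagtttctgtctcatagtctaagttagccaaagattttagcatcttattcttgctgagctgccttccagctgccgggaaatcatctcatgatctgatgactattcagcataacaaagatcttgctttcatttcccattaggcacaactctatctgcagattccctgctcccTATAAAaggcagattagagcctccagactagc
Ccl12: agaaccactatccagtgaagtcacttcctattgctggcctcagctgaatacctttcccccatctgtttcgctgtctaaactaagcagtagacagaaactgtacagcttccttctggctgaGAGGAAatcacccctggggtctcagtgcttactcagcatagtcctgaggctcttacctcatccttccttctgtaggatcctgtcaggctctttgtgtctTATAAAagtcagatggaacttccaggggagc
Ccl1: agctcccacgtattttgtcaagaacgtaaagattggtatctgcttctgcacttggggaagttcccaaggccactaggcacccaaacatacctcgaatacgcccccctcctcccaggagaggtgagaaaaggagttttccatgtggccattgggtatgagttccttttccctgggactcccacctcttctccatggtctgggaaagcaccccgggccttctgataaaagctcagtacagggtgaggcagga
Ccl9: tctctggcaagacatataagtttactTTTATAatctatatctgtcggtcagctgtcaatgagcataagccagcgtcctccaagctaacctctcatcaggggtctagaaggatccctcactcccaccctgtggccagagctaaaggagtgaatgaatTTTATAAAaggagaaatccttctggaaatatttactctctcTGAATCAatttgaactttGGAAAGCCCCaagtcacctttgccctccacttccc
Ccl6: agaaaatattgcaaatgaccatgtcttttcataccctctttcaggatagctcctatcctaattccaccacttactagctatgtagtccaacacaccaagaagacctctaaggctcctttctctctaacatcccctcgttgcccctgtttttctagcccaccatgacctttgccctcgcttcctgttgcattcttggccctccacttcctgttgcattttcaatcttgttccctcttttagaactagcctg

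Ccl8 and Ccl12 each held a TATA box, from base 32 to 27 and from base 31 to 26 before the start, and each held a PU.1 match. Ccl9 held 3 TATA matches on either strand, of which a pair overlapped, an AP-1 match (TGAATCA) and an NF-kB match (GGAAAGCCCC, on the opposite strand). The windows of Ccl1 and Ccl6 matched none of the 8 motifs, and none of the 5 windows held the forkhead letters. Over all 32851 promoters of the table, windows of the same length held a TATA box in 12.4%, AP-1 in 6.75%, NF-kB in 3.90%, PU.1 in 23.3%, STAT in 7.02%, STAT6 in 5.85%, C/EBP in 9.56% and the forkhead letters in 12.0%. These matches are letters in a window and say nothing of binding. The GC content was 44.8% for Ccl8, 48.4% for Ccl12, 52.8% for Ccl1, 43.6% for Ccl9 and 45.2% for Ccl6, against a median of 52.4% over all promoters. Local alignment of the 15 pairs among the 6 cluster promoters in the table, with Ccl3, found little shared sequence. The best pair by score was Ccl9 with Ccl6, with 16 identical bases in 17 aligned columns, followed by Ccl12 with Ccl8, with 21 in 27.

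Chemokine genes of the cluster were mostly higher in Rosa26-Foxm1 lung. Of the 9 measured members, 6 were at least 2-fold higher (Ccl2, Ccl6, Ccl7, Ccl8, Ccl9 and Ccl11) and none was 2-fold lower. The same sizes were reached by 1.99% (higher) and 1.51% (lower) of all 9518 measured genes. At 1.5-fold, 7 members were higher (7.09% of all measured genes), 1 was lower (8.46% of all) and 1 lay between. The median log2 difference over the members was 1.26, beside -0.06 over all measured genes. Since the members were chosen with these values known, the counts are given beside the background and nothing is read from the contrast. Each array is whole lung, so more cells of a type and more RNA per cell cannot be told apart.

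**Figure D1:**
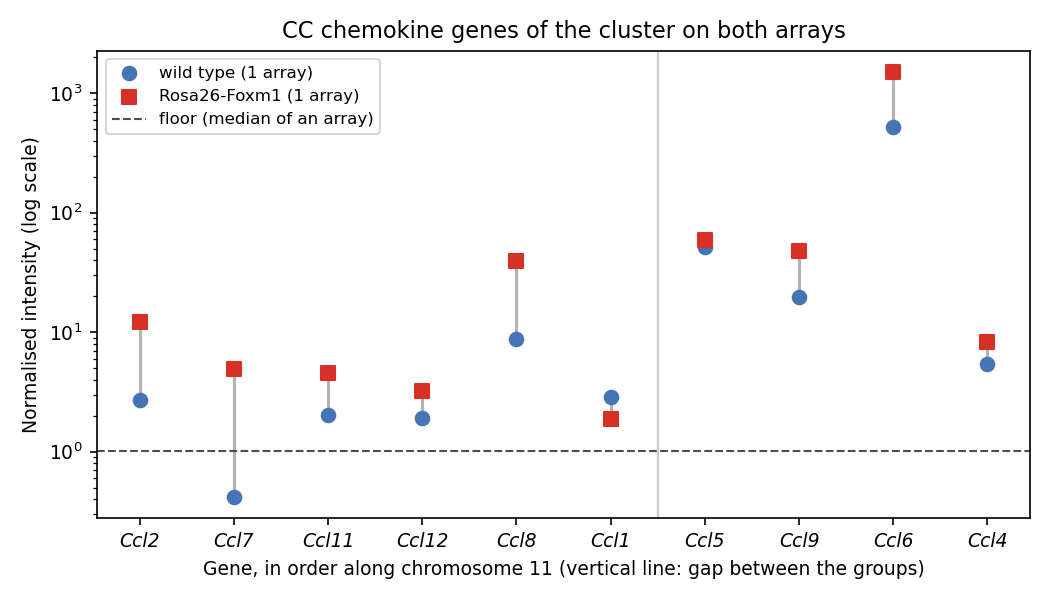
Normalised intensity (log scale) of each cluster gene with a probe, on the wild-type array (circles) and the Rosa26-Foxm1 array (squares), in order along the chromosome; the dashed line is the floor of 1.00. All genes but Ccl1 have the square above the circle, and Ccl7 alone has a value below the floor, in wild type.

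Ccl2, the main chemoattractant for inflammatory monocytes, had an intensity of 2.68 in the wild-type pool and 12.1 in the Rosa26-Foxm1 pool. This is 4.52-fold, or a log2 difference of 2.18, and 28 of the 9518 measured genes had a larger one. The wild-type value is 2.68 times the floor, so the size of the fold rests on a dim probe. Raising the floor to the 75th percentile put the wild-type value below it, and the difference was then at least 0.70.

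Ccl7, a monocyte attractant that shares Ccr2 with Ccl2 and lies next to it, had 0.420 in the wild-type pool and 4.91 in the Rosa26-Foxm1 pool. The wild-type value was below the floor, so Ccl7 was at least 4.90-fold higher. Its deposited intensities were 0.398 and 4.84, and without a floor the log2 difference was 3.55, which takes the value below the floor at its face. The Rosa26-Foxm1 value was 4.90 times the floor, so the presence of signal rests on that array alone.

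Ccl8, a ligand of Ccr8 in mouse and known from skin and airway type 2 inflammation, had 8.72 in the wild-type pool and 39.7 in the Rosa26-Foxm1 pool. It was 4.55-fold higher, with a difference of 2.19. Both values were well clear of the floor and Ccl8 had 1 probe, so neither the floor nor the probe choice could change its difference. Under the other alternatives the difference lay between 1.96 (correction for gene length) and 2.24 (loess).

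Ccl11, the eosinophil attractant eotaxin, had 2.02 in the wild-type pool and 4.50 in the Rosa26-Foxm1 pool, a 2.23-fold difference (1.16 on the log2 scale) between dim values. It lay just past the 2-fold size, and after a correction for gene length it was at 1.01. Ccl12, between Ccl11 and Ccl8 on the chromosome and a further ligand of Ccr2, had 1.92 and 3.21, a 1.67-fold difference (0.74). Its probe was also close to the floor on both arrays.

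Ccl1, a T cell product that signals through Ccr8, was the member with the opposite sign. It had 2.84 in the wild-type pool and 1.87 in the Rosa26-Foxm1 pool, 1.52-fold lower (-0.60). Both values were less than 3 times the floor, and the difference lay between -0.80 and -0.58 over the 7 alternatives in which it was measured. The first group thus held the 3 largest differences of the cluster and the 1 negative value, and its median was 2.18 over 5 members. That median leaves out Ccl12, which lies in the same group at a lower 0.74 but is not a member.

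In the second group all 4 measured members were above 0, with a median of 0.92. Ccl6, made by macrophages and other myeloid cells, had 521 in the wild-type pool and 1503 in the Rosa26-Foxm1 pool, 2.89-fold higher (1.53). Both values were far above the floor, and its deposited intensities of 472 and 1560 gave 3.30-fold. Ccl9, the neighbour of Ccl6 and like it a ligand of Ccr1, had 19.8 and 47.4, 2.39-fold higher (1.26). These adjacent genes were apart by 0.27, which is 0.61 times the error of a gap between genes that follows from the probe SD of 0.32.

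Ccl4, a chemoattractant made by activated macrophages and lymphocytes, had 5.45 in the wild-type pool and 8.21 in the Rosa26-Foxm1 pool, a difference of 0.59 that lay just past the 1.5-fold size. It fell short of that size with median scaling or the deposited values (0.55 in both) and after the correction for gene length (0.58), which left 6 members at least 1.5-fold higher. Raising the floor to the 75th percentile left 0.14, a lower bound. Ccl5, known from T cells, NK cells and epithelium, had 52.0 and 58.7. The Ccl5 difference of 0.17 was below the probe SD and was 0.01 after correction for gene length. Ccl4 and Ccl5 therefore lay below the 6 members past 2-fold.

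Ordered by difference, the members ran Ccl7 (a lower bound), Ccl8, Ccl2, Ccl6, Ccl9, Ccl11, Ccl4, Ccl5 and Ccl1. Ccl8 and Ccl2 were apart by 0.01, Ccl9 and Ccl11 by 0.10 and Ccl6 and Ccl9 by 0.27. The widest steps among the other members were 0.78 between Ccl5 and Ccl1, 0.65 between Ccl2 and Ccl6 and 0.57 between Ccl11 and Ccl4. Among the 8 members above the floor on both arrays, no step between neighbours in this order exceeded 0.95, the size passed by 5% of probe pairs of the same gene. The step from Ccl7 down to Ccl8 is a lower bound, since Ccl7 was at 3.55 without a floor. Related chemokines have similar transcripts, and probe sequences were not used here, so whether a probe also takes up RNA of a related member was not checked.

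**Figure D2:**
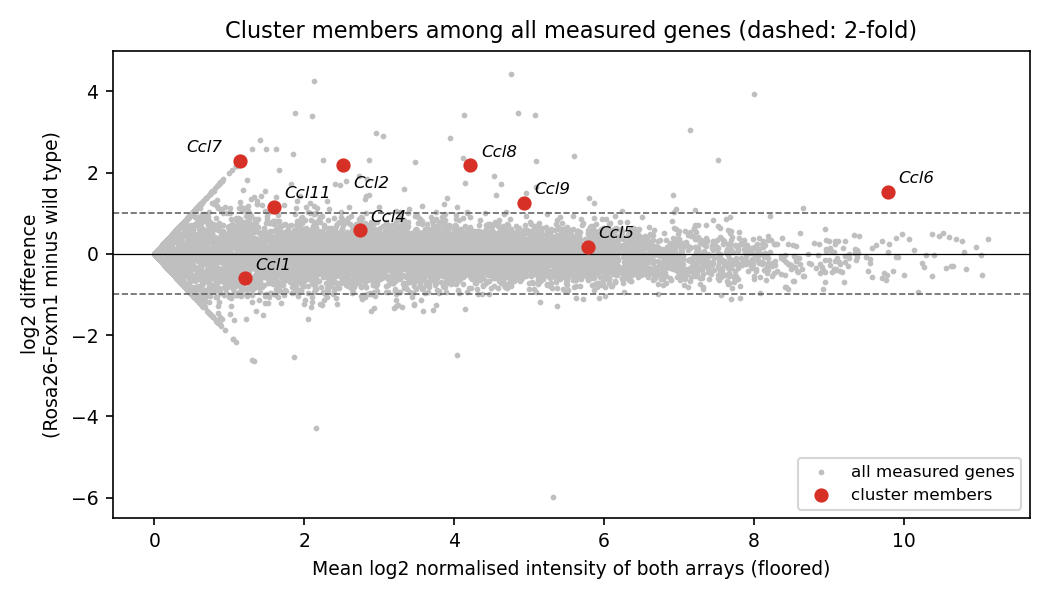
Log2 difference (Rosa26-Foxm1 minus wild type) against the mean log2 normalised intensity of both arrays, for all 9518 measured genes (grey) and the 9 measured members (red); dashed lines mark 2-fold. The members at least 2-fold higher run from the dim end (Ccl7, Ccl11) to the bright end (Ccl6), and the slanted grey edges at the left are genes with 1 array at the floor.

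Most genes that flank the cluster lay within 1.5-fold, as did most measured genes of the array. The 10 nearest named genes with a probe on each side of either group came to 34 genes, of which 25 were measured. Of these 25, 21 lay within 1.5-fold, beside 8038 of all 9518 measured genes, so nothing particular to the flanks is read from this count. Their median difference was -0.11 (-0.06 over all measured genes), and 9 were above 0 and 16 below. At least 2-fold higher were 2 of them, a size reached by 1.99% of all measured genes. Wfdc21, a small secreted protein with a whey acidic protein domain that lies just beyond Ccl4, had 9.50 in the wild-type pool and 22.3 in the Rosa26-Foxm1 pool (2.35-fold higher). The other was Slfn8, a Schlafen gene between the groups whose wild-type value was under the floor, so that its 2.13-fold is a lower bound. At the low end stood the mitochondrial transport GTPase Rhot1 at -0.75 and Tada2a, a subunit of histone acetyltransferase complexes, at -0.62. Of the 10 measured genes between Ccl1 and Ccl5, Slfn8 alone passed 1.5-fold. Taf15 had its Rosa26-Foxm1 value below the floor, at a bound of -0.33 (-0.78 without a floor).

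**Figure D3:**
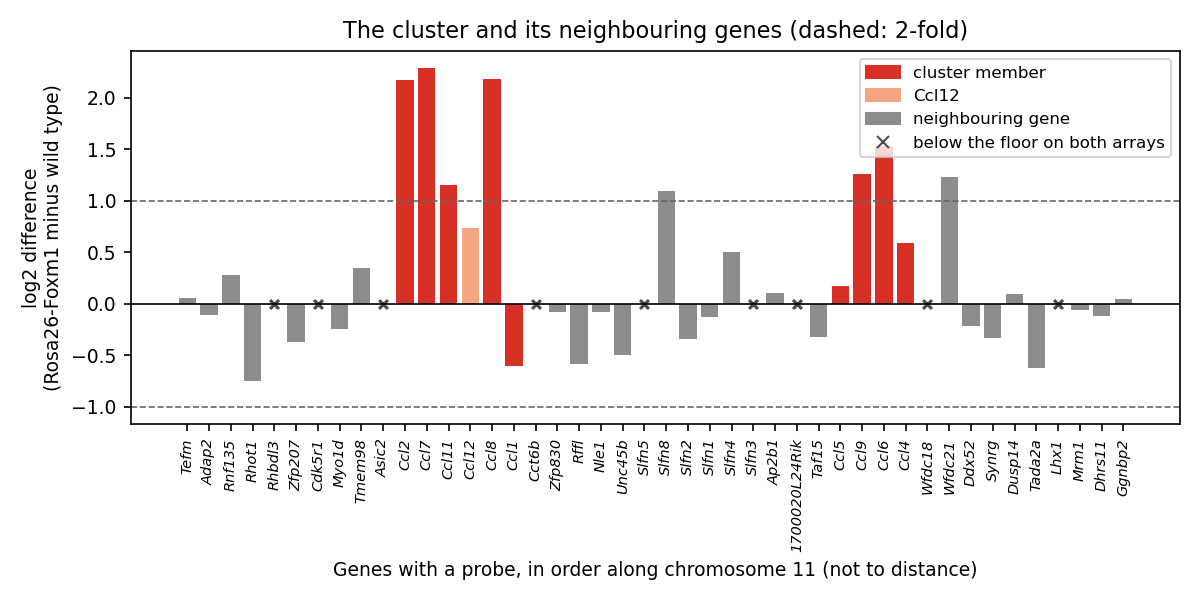
Log2 difference (Rosa26-Foxm1 minus wild type) of the cluster members (red), Ccl12 (light red) and neighbouring genes with a probe (grey), in order along chromosome 11 and not to distance; crosses mark genes below the floor on both arrays. The red bars past 2-fold stand in both groups of the cluster, and Slfn8 and Wfdc21 are the grey bars that pass it.

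Neither of the 2 measured receptors for these ligands was 1.5-fold apart, as was true of 8038 of all 9518 measured genes. Ccr2, the monocyte receptor of Ccl2, Ccl7 and Ccl12, had 7.15 in the wild-type pool and 5.39 in the Rosa26-Foxm1 pool (-0.41). Ccr1, the receptor of Ccl6 and Ccl9, had 2.29 and 2.25 (-0.02), within the probe SD. Ccr3 and Ccr8, the receptors of Ccl11 and of Ccl8 and Ccl1, and Ccr1l1 had both arrays under the floor.

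Atypical receptors bind chemokines without signalling through G proteins and lower or transport them. Ackr2, which scavenges inflammatory CC chemokines, most members of this cluster among them, had 52.6 in the wild-type pool and 32.3 in the Rosa26-Foxm1 pool, 1.63-fold lower (-0.70). Ccrl2, a chemerin-binding receptor of the same family, was at -0.52 (86.0 against 59.9) and Ackr4, the scavenger of Ccl19, Ccl21 and Ccl25, at -0.22. Ackr1, the Duffy antigen of venules and red cells, was below the floor in wild type and at 1.49 in Rosa26-Foxm1 lung, a difference of at least 0.57. In all, 1 of the 4 was lower by 1.5-fold or more (8.46% of all measured genes), and the bound on Ackr1 lay short of that size (1.20 without a floor).

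CC chemokines of other loci, with Ccl12, had a median of 0.74 over 7 measured genes, and 4 were at least 1.5-fold higher and none lower. Ccl12 was among the 4. Over all measured genes, 7.09% were higher and 8.46% lower by that size. No probe was named for Ccl20, Ccl24, Ccl26 or Ccl28. Ccl22 and Ccl17, ligands of Ccr4 made by dendritic cells and macrophages, were 2.47-fold (1.65 against 4.07) and 2.20-fold higher (3.04 against 6.68). Their receptor Ccr4, found on helper and regulatory T cells, was 2.06-fold higher, from 1.57 to 3.24. Ccl19, a ligand of Ccr7 in lymphoid tissue, was 2.15-fold higher, reaching 15.5 in the Rosa26-Foxm1 pool. Ccl21a, the other Ccr7 ligand, was at 0.33, and its close copies share most of their sequence with it. Ccl25 was at 0.01 and Ccl27a at -0.27. Among the receptors of these chemokines, Ccr7 was at 0.31, Ccr6 at 0.12, Ccr10 at 0.05 and Ccr9 at 0.16 with wild type below the floor, so Ccr4 was the 1 of 5 past 1.5-fold.

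**Figure D4:**
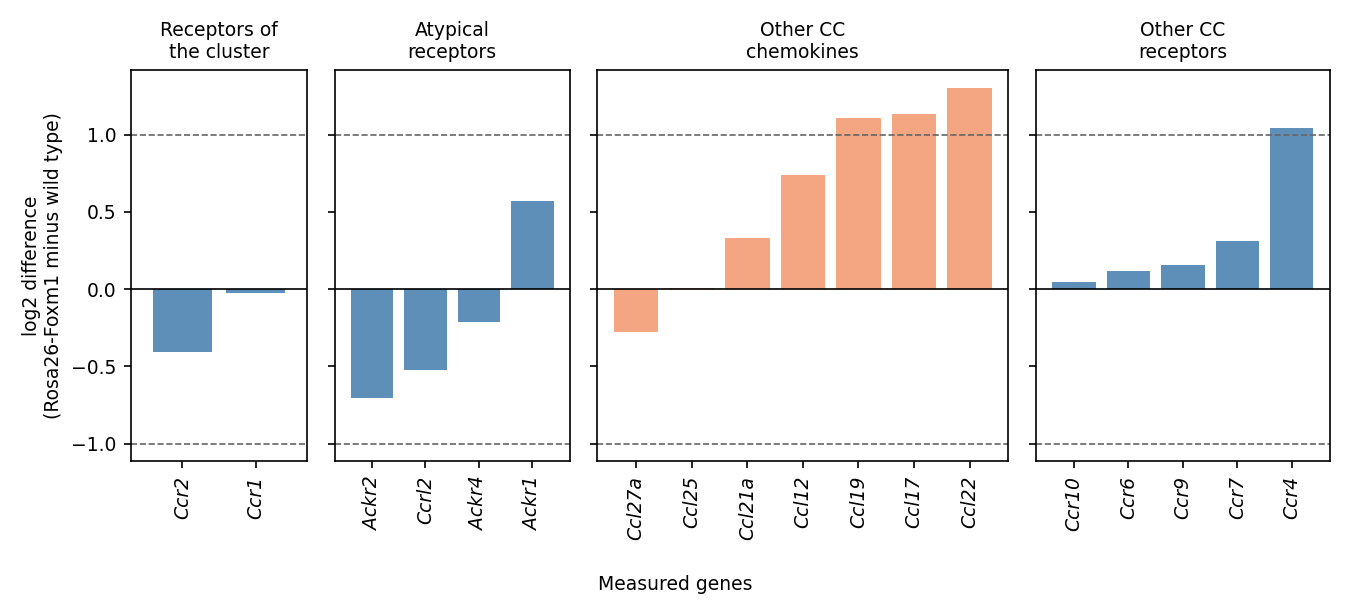
Log2 difference (Rosa26-Foxm1 minus wild type) of the measured receptors of the cluster, atypical receptors, other CC chemokines (light red) and other CC receptors; dashed lines mark 2-fold. Ccl19, Ccl17, Ccl22 and Ccr4 pass the 2-fold line, and both receptors of the cluster lie below 0.

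Cytokines known to regulate these chemokines were mixed. Of 6 measured, 2 were at least 1.5-fold higher, at least 2 were lower and the median was -0.12. By that size, 7.09% of all measured genes were higher and 8.46% lower. For Il10 the Rosa26-Foxm1 value was below the floor, and its difference of -0.51 is a bound (-1.52 without a floor). Csf2, the granulocyte-macrophage growth factor, was 2.64-fold higher (1.89 against 4.99) and interleukin 1 alpha (Il1a) was at 0.70. Interferon gamma (Ifng) was at -0.63, with Rosa26-Foxm1 below the floor, and Tnf at -0.59 (2.76 against 1.84). Il4, Il6, Il13, Il17a and Ifnb1 were below the floor on both arrays. Transcription factors and regulators of the NF-kB and STAT pathways had a median of -0.06 over 9 genes, none at least 1.5-fold higher and 2 lower. The NF-kB target Tnfaip3 was at 0.12 and Nfkb2 at 0.09, against -0.72 for Stat6 and -0.66 for Stat3.

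Markers of the leukocytes that make or follow these chemokines were mixed, and their part in the member values was not tested. For the counts at 1.5-fold, 7.09% of all measured genes were higher and 8.46% lower. Macrophage markers had a median of -0.36 over 9 genes of 12, with 3 at least 1.5-fold higher and 2 lower. Their summed intensity was 1156 in the wild-type pool and 848 in the Rosa26-Foxm1 pool. Lyz2 alone held 1049 and 735 of these sums, so they mostly follow that gene and do not describe the list as a whole. The scavenger receptor Msr1 was 3.24-fold higher (3.11 against 10.1) and the endotoxin co-receptor Cd14 1.77-fold, while the alveolar macrophage lectin Siglecf was 2.39-fold lower and Marco was at least 1.68-fold lower. Monocyte markers lay at a median of -0.24 over 5 of 8, none 1.5-fold apart, with sums of 930 and 1139. Chil3 alone held 583 and 787 of these sums. Chil3 was at 0.43 and Plac8 at 0.32, Itgam at -0.43 and F13a1 at -0.35.

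Neutrophil markers were at -0.41 over 7 of 10 (sums 756 and 556), with Camp at 0.45 (wild type below the floor), Retnlg at -0.17, Ngp at -1.28 and Csf3r at -0.64. At the 1.5-fold size 3 of them were lower, and the bound on Camp lay short of it (0.82 without a floor). That size was reached by 7.09% (higher) and 8.46% (lower) of all measured genes. The eosinophil granule genes Prg2 and Epx and the receptor Il5ra were below the floor on both arrays, beside the higher eotaxin value. Among the genes listed as mast cell markers, Cpa3, Fcer1a and Ms4a2 were below the floor on both arrays, Tpsb2 was at 1.00, Kit was at -0.78 and Cma1 at -0.77. The eosinophil and mast cell list had sums of 84.5 and 70.6 over 3 of 12 genes. Kit held 67.3 and 39.2 of these sums and Tpsb2 15.1 and 30.2, so they do not describe the list as a whole. T and NK cell markers were at -0.11 over 10 of 12 (sums 91.2 and 100.4), 1 at least 1.5-fold higher and none lower. Cd3g was at 0.76, Gzma at 0.44, Prf1 at -0.38 and Cd3e at -0.34. B cell markers were at -0.75 over 4 of 7 (sums 65.6 and 43.0), 2 lower and none higher, with Cr2 at -1.62, Ms4a1 at -0.96, Cd79b at -0.54 and Cd79a at -0.07. Structural lung markers were at -0.35 over 12 (sums 6749 and 5054), of which 3 were lower by 1.5-fold or more and none was higher by as much. Pdpn was at 0.24, Aqp5 at 0.10, Cdh5 at -0.94 and Pecam1 at -1.08.

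**Figure D5:**
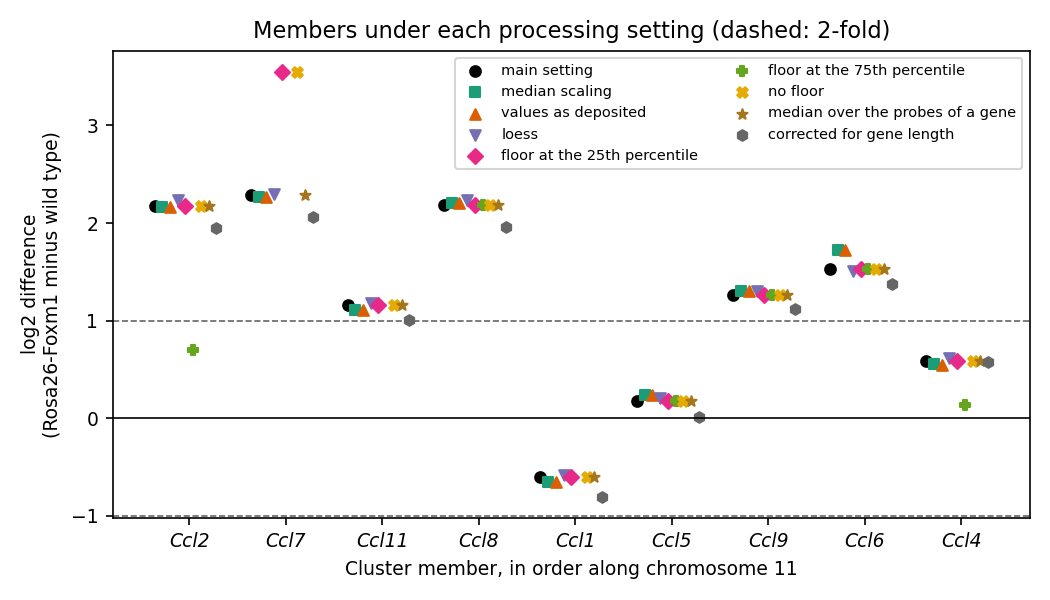
Log2 difference (Rosa26-Foxm1 minus wild type) of each measured member under the main setting and the alternatives in which it was measured; dashed lines mark 2-fold. Each member keeps its sign, which a change of floor cannot reverse. The floor moves Ccl7 up (3.55 with a lower floor or none) and Ccl2 and Ccl4 down (0.70 and 0.14 with the floor at the 75th percentile).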

How the data were processed

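Lung RNA was measured on 2 one-colour arrays of 33012 probes, 1 per genotype, from RNA labelled with digoxigenin, per the labels' protocols. The authors deposited linear probe intensities with medians of 1.00 on both arrays. The image software, background correction and scaling behind them are not stated there, and no detection calls were used. Probes were named from the platform annotation, with symbols updated by gene ID to RefSeq (GRCm38.p6, used for names, gene order, gene length and promoters). The annotation gave 1 gene for 14411 probes, several for 247 (left unnamed) and none for 18354, and 13832 of 13840 genes matched a RefSeq ID.

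Log2 values were quantile normalised between the arrays and floored at the 50th percentile (Python 3.11.15, pandas 2.3.3). A gene with several probes was represented by its brightest, and every member had 1. Named were all members, measured CC chemokines and receptors, and the 2 highest and 2 lowest of each other list and of the neighbours. Lyz2 was also named, for its share of a sum. No gene was named for likeness of pattern, since 2 arrays give 1 difference. Members and the 15 lists were chosen with earlier results of these data known. The steps were run on simulated data, made from the wild-type values with known changes in probes clear of the floor and no added noise. That run therefore says nothing of dim or noisy probes. Alternatives covered normalisation, floor, probe choice, gene length (statsmodels 0.14.6) and the addition of Ccl12.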

Additional observations from a re-analysis of the deposited data

How the results depend on the processing

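Every measured member kept its sign under each alternative in which it was measured, and the median over the members stayed between 0.98 and 1.30. A floor common to both arrays cannot reverse a sign, so only the alternatives of normalisation and gene length could have done so. The floor had the largest effect. With the floor at the 75th percentile, 6 members were measured, 3 were at least 2-fold and 4 at least 1.5-fold higher, the median of the first group was 1.44 over Ccl2 (a lower bound) and Ccl8, the 2 of its members still measured, and 0.801% of all measured genes were at least 2-fold higher. A floor at the 25th percentile brought that share to 4.35%, and leaving out the floor to 5.74%. Median scaling, the deposited values and loess left 6 members at least 2-fold higher, as did the correction for gene length and the addition of Ccl12, both chosen after seeing the data. At 1.5-fold, 6 members were higher with median scaling, the deposited values or the correction for gene length. Median scaling and the deposited values are nearly the same setting, since the deposited medians were 1.00 on both arrays. The median over probes could change no member, since each has 1 probe. Nor could a floor change a member with both values above it. The probe SD was 0.26 over probes above the floor on both arrays, also an added choice. No paired analysis was possible because each group is 1 array. A difference or median was taken as moved when it changed by more than the probe SD. A count or share was taken as moved when it changed by more than 1.5-fold. Dim probes limit Ccl1, Ccl2, Ccl7 and Ccl11, and the number of arrays limits every value.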
